A study of Mus musculus with 11 samples.

Results

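The melanocyte lineage genes examined here are 4 transcription factors (Mitf, Sox10, Pax3 and Tfap2a) and 3 receptors (Kit, Ednrb and Mc1r), listed by name, with no measured value in the rule. Of these 7 genes, 6 had a row among the 14272 genes of the files, and Ednrb was not analysed here. Their levels were read in 11 total RNA libraries of 4 mouse cell lines. Melan-a is a spontaneously immortalized line of nonmalignant melanocytes, syngeneic to C57Bl/6, with an epithelial phenotype, and it was grown with 200 nM PMA, a phorbol ester that activates protein kinase C. The lines 4C, 4C11- and 4C11+ were obtained from melan-a by repeated cycles of detachment and re-adhesion and were grown without PMA. 4C is pre-malignant and mesenchymal-like, 4C11- is a non-metastatic melanoma with a mesenchymal-like phenotype, and 4C11+ is a metastatic melanoma with an epithelial phenotype. All 4 lines therefore go back to 1 melanocyte line, each derived line is a single line of its stage, and the PMA of melan-a cannot be told apart from the line. For each derived line there were 3 libraries, labelled as replicates, and for melan-a there were 2, which carry the replicate numbers 2 and 3. The paper describes triplicates of each line and does not state whether they were separate cultures.

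Melanocytes arise from the neural crest. SOX10, a SOXE factor, and PAX3, a paired box factor, act on the promoter of Mitf, and MITF, a basic helix-loop-helix leucine zipper factor, drives the genes of pigment synthesis and of melanocyte survival. TFAP2A, an AP-2 factor, acts beside MITF in the lineage. KIT is the receptor tyrosine kinase for KIT ligand (Kitl), EDNRB is the G protein-coupled receptor for the endothelins, and MC1R is the receptor for the melanocortins made from Pomc, which raises cyclic AMP and through CREB increases Mitf transcription.

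For these genes the regulatory sequences are shown first, since the tested genes moved together between lines. RefSeq windows on GRCm38.p6, running from 250 bases before to 50 bases after an annotated start, held 9 windows for 5 of the genes (3 of Mitf, 2 each of Kit and Tfap2a, 1 each of Mc1r and Ednrb). The sequence of Mitf is the window of the most downstream of its 3 starts, the one used in melanocytes, at chr6:97991533-97991832 on the plus strand, inside the gene. Its capitals mark the cyclic AMP response element TGACGTCA, the motif that links melanocortin signaling to Mitf.
Mitf: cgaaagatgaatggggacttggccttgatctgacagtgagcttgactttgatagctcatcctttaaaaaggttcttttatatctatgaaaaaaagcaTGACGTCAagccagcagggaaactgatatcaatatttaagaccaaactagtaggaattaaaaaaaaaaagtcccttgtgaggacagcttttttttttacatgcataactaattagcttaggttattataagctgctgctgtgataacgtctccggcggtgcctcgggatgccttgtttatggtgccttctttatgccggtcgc
The window of Mc1r is shown for the core E-box of the MITF-bound M-box, CATGTG, and lies at chr8:123406832-123407131 on the plus strand. Its capitals mark, in order, an AP-2 match and 2 E-box matches, of which the first reads CACATG on this strand.
Mc1r: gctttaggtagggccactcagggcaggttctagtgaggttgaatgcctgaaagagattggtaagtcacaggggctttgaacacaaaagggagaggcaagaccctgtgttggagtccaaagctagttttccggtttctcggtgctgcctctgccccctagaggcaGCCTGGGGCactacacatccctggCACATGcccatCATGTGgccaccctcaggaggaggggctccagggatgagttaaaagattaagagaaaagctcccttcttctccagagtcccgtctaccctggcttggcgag
Kit is shown for an AP-2 match (GCCNNNGGC), in capitals, at chr5:75574737-75575036 on the plus strand.
Kit: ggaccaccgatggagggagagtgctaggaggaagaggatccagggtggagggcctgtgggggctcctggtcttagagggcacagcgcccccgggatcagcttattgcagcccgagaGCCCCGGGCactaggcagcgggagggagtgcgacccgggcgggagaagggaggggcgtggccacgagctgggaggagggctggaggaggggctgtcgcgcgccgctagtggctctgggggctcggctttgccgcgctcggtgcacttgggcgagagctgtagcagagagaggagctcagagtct
The element in the Mitf window began 153 bases before the start. The E-box matches of Mc1r began 62 and 51 bases before its start and its AP-2 match 86 bases before, and the AP-2 match of Kit began 134 bases before. Both strands were searched, and overlaps between motifs were allowed. Over all 32851 windows, TGACGTCA was found in 1.8%, CATGTG in 14.2% and GCCNNNGGC in 16.6%. The palindromic E-box CACGTG (7.2% of windows) and the SOX motifs ACAAAG (18.7%) and AACAAT (10.7%) had no match in the windows of these genes. The middle Mitf window and the Ednrb window each held 1 further AP-2 match, and the Tfap2a windows held no match to any of the 6 motifs. A match describes the letters of a window and was not tested for binding.

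The depth estimated from the files was 3500000 to 7420000 reads per library, and 136 to 711 genes of a library lay at 0 reads. Libraries of a line correlated across genes at r = 0.888 to 0.981, with r = 0.907 for the melan-a pair. Levels are given as log2 CPM (read counts scaled to a common library total) after the authors' normalization, in which 0 reads correspond to values between -3.44 and -2.44, depending on the library. Reads given below are estimated from the steps of the low values, and intervals on reads cover counting error only. As a check of the melanocyte label, melan-a carried Dct at 9.04 and 10.81, Tyrp1 at 8.51 and 12.63 and Mlana at 6.73 and 8.40, whereas Tyr, the rate-limiting enzyme of melanin synthesis, was at -0.25 and 1.29 (3 and 13 reads) and Pmel at 2.41 and 2.95. Over 18 pigment genes, of which 17 had a row, the summed level reached 16342 to 20354 CPM in the 4C11+ libraries and 4912 to 11482 CPM in those of melan-a. It was 620 to 1586 CPM for 4C and 303 to 629 CPM for 4C11-. Gpnmb, a gene of this list, was at 9.10, 8.67 and 10.43 in 4C and at 9.01, 7.85 and 6.61 in 4C11-. Tyrp1, Dct and Mlana lay at or below 0.87 in every library of these lines, so the sums there do not stand for such genes. In melan-a Gpnmb was at 11.64 and 11.15. In such bulk RNA, fewer cells that express a gene and less RNA of it per cell cannot be told apart.

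Mitf (ENSMUSG00000035158; GRCm38 chromosome 6, 97807052 to 98021349, plus strand) was high in both epithelial lines and nearly lost in both mesenchymal-like ones. Its log2 CPM was 7.73 and 7.97 in melan-a, 0.87, -0.70 and 0.44 in 4C, -0.70, 1.14 and -0.70 in 4C11-, and 6.38, 6.23 and 8.76 in 4C11+. The libraries of the epithelial lines did not overlap those of the mesenchymal-like lines, while 4C and 4C11- overlapped. The line means were 7.85 ± 0.16 (SD, n = 2) in melan-a, 7.12 ± 1.42 (n = 3) in 4C11+, 0.20 ± 0.81 (n = 3) in 4C and -0.09 ± 1.06 (n = 3) in 4C11-. The estimated reads of Mitf were 11, 5 and 8 in 4C and 3, 16 and 6 in 4C11-, so that Mitf RNA was low in these lines but not at 0. Set against the pooled reads, Mitf in melan-a was 186-fold higher than in 4C (95% Poisson interval, 125 to 290) and 173-fold higher than in 4C11- (117 to 268). In the limma fit over all genes Mitf fell by 7.65 on the log2 scale from melan-a to 4C (SE 0.79, adjusted p = 3.89e-05) and rose by 7.21 from 4C11- to 4C11+ (SE 0.71, adjusted p = 1.64e-05). The Mitf gene has 8 annotated transcripts, and a value per gene does not tell them apart.

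**Figure D1:**
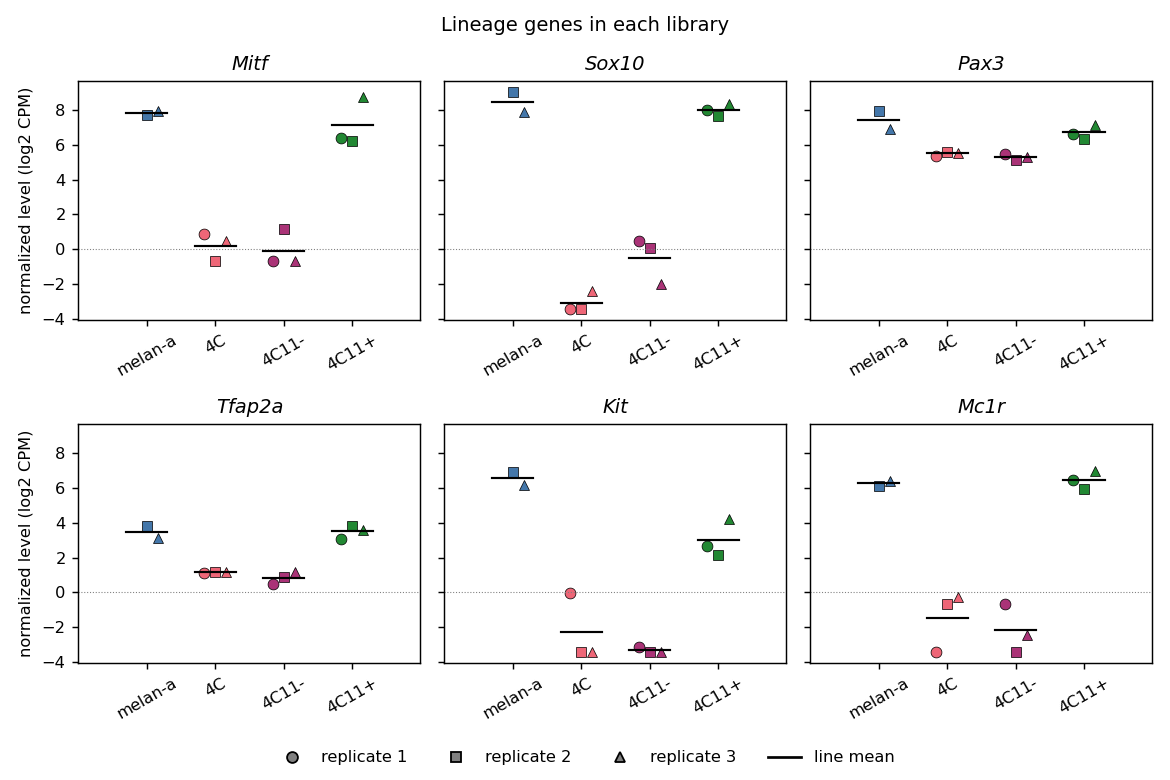
Log2 CPM (y axis, the same for all panels) of the 6 measured lineage genes in the libraries of the 4 lines (x axis); points are libraries, with the shape giving the replicate, and black bars are line means. Mitf, Sox10, Kit and Mc1r lie at or below 1.14 in every 4C and 4C11- library, whereas Pax3 stays at or above 5.10 there.

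Sox10 (ENSMUSG00000033006; chromosome 15, 79154908 to 79165240, minus strand) showed the widest range of the 6 genes. It was at 9.05 and 7.88 in melan-a, at -3.44, -3.44 and -2.44 in 4C, at 0.48, 0.06 and -2.01 in 4C11-, and at 8.02, 7.68 and 8.34 in 4C11+. All epithelial libraries lay far above all mesenchymal-like ones, and each 4C11- library lay above each 4C library. The mean was 8.46 ± 0.83 (SD, n = 2) in melan-a, 8.01 ± 0.33 (n = 3) in 4C11+, -0.49 ± 1.33 (n = 3) in 4C11- and -3.11 ± 0.58 (n = 3) in 4C. Over its 3 libraries 4C held 1 Sox10 read in all, and the ratio of melan-a to 4C was 7366, with a counting interval of 1322 to 290954. The 4C11- libraries held 7, 8 and 3 reads, and melan-a was 397-fold higher than 4C11- (251 to 670). Sox10 fell by 11.57 from melan-a to 4C (limma, SE 0.68, adjusted p = 5.08e-07) and rose by 8.50 from 4C11- to 4C11+ (SE 0.61, adjusted p = 1.34e-06). Between 4C and 4C11- the difference of 2.62 (95% interval 1.28 to 3.96) did not pass the threshold (limma, adjusted p = 0.0592). Without replicate 3 of 4C11- it was 3.38 and passed (limma, adjusted p = 0.00587), and with all values below 0 set to 0, a setting chosen after seeing the data, it was 0.18 (adjusted p = 0.887).

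Pax3 (ENSMUSG00000004872; chromosome 1, 78101267 to 78197134, minus strand) was the member that kept a clear level in every line. It was at 7.94 and 6.94 in melan-a, at 5.37, 5.60 and 5.55 in 4C, at 5.49, 5.10 and 5.31 in 4C11-, and at 6.65, 6.34 and 7.16 in 4C11+. The lowest epithelial library, at 6.34, was above the highest mesenchymal-like library, at 5.60, but the gap was small beside that of Mitf or Sox10. Estimated reads of Pax3 were 308, 313 and 229 in 4C and 188, 240 and 243 in 4C11-. It fell by 1.93 from melan-a to 4C (limma, SE 0.33, adjusted p = 0.00173) and rose by 1.41 from 4C11- to 4C11+ (SE 0.29, adjusted p = 0.00355). The means were 7.44 ± 0.71 (SD, n = 2) in melan-a, 6.72 ± 0.41 (n = 3) in 4C11+, 5.50 ± 0.12 (n = 3) in 4C and 5.30 ± 0.20 (n = 3) in 4C11-.

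Tfap2a (ENSMUSG00000021359; chromosome 13, 40715302 to 40738376, minus strand) was low in all lines and moved in the same direction. Its values were 3.83 and 3.13 in melan-a, 1.13, 1.15 and 1.18 in 4C, 0.48, 0.85 and 1.16 in 4C11-, and 3.09, 3.82 and 3.60 in 4C11+. The libraries of the 2 phenotypes did not overlap, and melan-a and 4C11+ did. These values rest on few reads (48 and 52 in melan-a, 13, 16 and 13 in 4C, 7, 13 and 16 in 4C11-, and 35, 58 and 71 in 4C11+). Tfap2a fell by 2.33 from melan-a to 4C (limma, SE 0.41, adjusted p = 0.0025) and rose by 2.67 from 4C11- to 4C11+ (SE 0.37, adjusted p = 0.00023). It shares 718 exon bases with antisense gene models, and since the strand setting of the counting is not stated, reads of these models cannot be told apart from those of Tfap2a.

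Kit (ENSMUSG00000005672; chromosome 5, 75574916 to 75656722, plus strand) was the receptor called different between the epithelial lines, besides its near loss in the mesenchymal-like ones. It was at 6.92 and 6.18 in melan-a, at -0.04, -3.44 and -3.44 in 4C, at -3.15, -3.44 and -3.44 in 4C11-, and at 2.69, 2.17 and 4.22 in 4C11+. The order was melan-a, then 4C11+, then 4C and 4C11-, and only the last 2 overlapped. Kit had 6, 0 and 0 reads in 4C and 0 reads in all 3 libraries of 4C11-, against 26, 17 and 113 in 4C11+. Relative to melan-a, at 96.8 CPM, Kit was 311-fold lower in 4C (143 to 847) and at least 603-fold lower in 4C11-, the bound being taken at 3 reads pooled over the line. In 4C11+ the pooled level was 11.4 CPM (95% Poisson interval 9.65 to 13.3). Kit fell by 8.86 from melan-a to 4C (limma, SE 0.97, adjusted p = 6.06e-05) and rose by 6.37 from 4C11- to 4C11+ (SE 0.87, adjusted p = 0.000197). With values below 0 set to 0 this rise, and that from 4C to 4C11+, was 3.03, so its fitted size depends on the lower end of the scale.

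Mc1r (ENSMUSG00000074037; chromosome 8, 123407107 to 123410744, plus strand), a gene of 1 exon, was high in both epithelial lines and close to 0 reads in the mesenchymal-like ones. It was at 6.13 and 6.43 in melan-a, at -3.44, -0.70 and -0.25 in 4C, at -0.70, -3.44 and -2.44 in 4C11-, and at 6.44, 5.93 and 6.97 in 4C11+. Melan-a and 4C11+ overlapped, as did 4C and 4C11-, and the first pair lay wholly above the second. The reads were 0, 5 and 5 in 4C and 3, 0 and 2 in 4C11-. Mc1r in 4C11+ was 175-fold higher than in 4C (95.4 to 366) and 340-fold higher than in 4C11- (146 to 1049). It fell by 7.74 from melan-a to 4C (limma, SE 0.94, adjusted p = 0.000138) and rose by 8.64 from 4C11- to 4C11+ (SE 0.84, adjusted p = 1.47e-05). A gene model on the opposite strand shares 653 of its exon bases, and reads of the 2 cannot be told apart without strand.

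**Figure D2:**
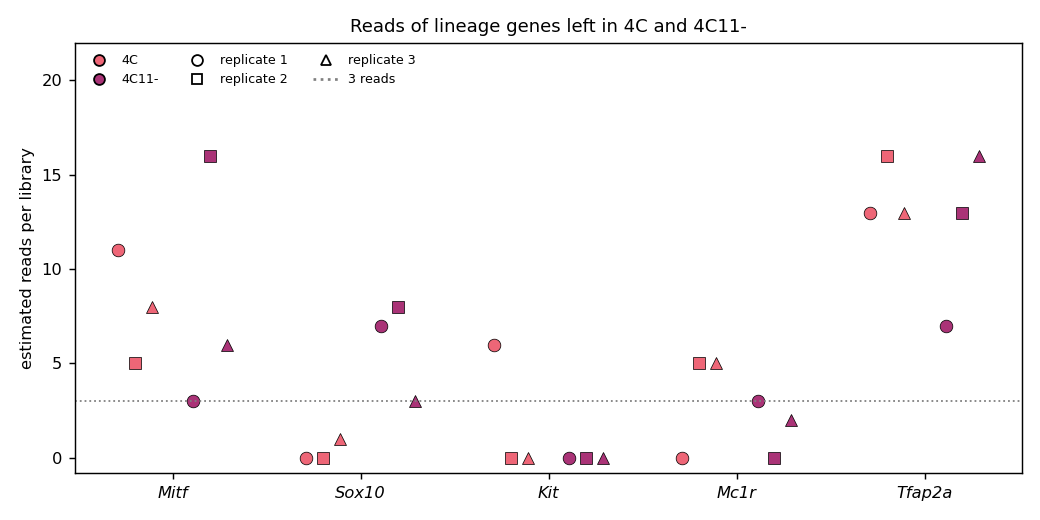
Estimated reads (y axis) of Mitf, Sox10, Kit, Mc1r and Tfap2a in the 3 libraries each of 4C and 4C11-, with a dotted line at 3 reads. Kit is at 0 reads in every 4C11- library and Sox10 at 0 or 1 in every 4C library, whereas Mitf lies between 3 and 16 reads in all 6.

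Scaled to exon length, which allows genes to be compared, Sox10 led in both epithelial lines. In melan-a the levels in log2 CPM per kilobase were 6.85 for Sox10, 5.22 for Mitf, 4.81 for Pax3, 4.41 for Mc1r, 3.39 for Kit and 1.18 for Tfap2a, and 97.7% of genes lay below Sox10. In 4C11+ the order was Sox10 at 6.40, Mc1r at 4.58, Mitf at 4.49, Pax3 at 4.09, Tfap2a at 1.21 and Kit at -0.13, so Kit changed from the fifth place to the last. In 4C the highest was Pax3 at 2.88, above 57.2% of genes, followed by Tfap2a at -1.14, and the other 4 lay between -5.46 and -2.43. Among the 3 libraries of 4C11+, replicate 3 had the highest value of 5 of the 6 genes, with Mitf at 8.76 against 6.38 and 6.23 and Kit at 4.22 against 2.69 and 2.17. For Tfap2a its value of 3.60 was the middle one.

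The step from melan-a to 4C asks what changed at the pre-malignant stage. All 6 genes were lower in 4C (limma, adjusted p under 0.05), where 7.55% of all genes were called lower and 7.64% higher. Their log2 differences ranged from -11.57 (Sox10) to -1.93 (Pax3), with a median of -7.70 against a median of -0.06 over all genes. All 6 were also lower in 4C11- than in melan-a, a comparison with 6.05% of all genes called lower and 7.55% higher. There the differences were -7.94 for Mitf, -8.95 for Sox10, -2.14 for Pax3, -2.64 for Tfap2a, -9.89 for Kit and -8.47 for Mc1r. The comparisons with melan-a share its 2 libraries.

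Between the mesenchymal-like lines no lineage gene passed the threshold. In limma 0 of 6 were called between 4C and 4C11-, 1 (Sox10) had an unadjusted p under 0.05, and 1.26% of all genes were called higher and 0.406% lower in 4C11-. The 95% intervals of the differences were -1.84 to 1.26 for Mitf, -0.84 to 0.44 for Pax3, -1.13 to 0.49 for Tfap2a and -2.93 to 0.86 for Kit. For Mc1r the interval was -2.56 to 1.10. At these few reads, differences in Mitf, Kit or Mc1r of a size inside their intervals remain possible.

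The step from 4C11- to 4C11+ compares the non-metastatic with the metastatic melanoma. All 6 genes were higher in 4C11+ (15.6% of all genes called higher and 15.4% lower), with differences from 1.41 (Pax3) to 8.64 (Mc1r) and a median of 6.79 against 0.12 over all genes. Against 4C all 6 were higher as well (17.1% of genes called higher and 14.6% lower), by 6.92 for Mitf, 11.12 for Sox10, 1.21 for Pax3, 2.35 for Tfap2a, 5.33 for Kit and 7.91 for Mc1r.

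Set against melan-a, the other epithelial line, 4C11+ differed in 1 of the 6 genes. Kit was lower by 3.53 on the log2 scale (95% interval -5.65 to -1.40; limma, adjusted p = 0.0299), in all 3 libraries of 4C11+, where 7.52% of all genes were called lower and 8.39% higher. This call was lost when replicate 2 or 3 of melan-a or replicate 1 or 2 of 4C11+ was left out, at differences of -3.90 to -3.10 and limma adjusted p of 0.0596 to 0.173. The remaining 5 genes were not called, with differences of -0.73 for Mitf (95% interval -2.47 to 1.01), -0.45 for Sox10 (-1.95 to 1.04), -0.72 for Pax3 (-1.44 to -0.0074), 0.03 for Tfap2a (-0.88 to 0.93) and 0.17 for Mc1r (-1.88 to 2.22). These intervals leave room for sizable differences and do not show that the lines are alike. Without replicate 3 of melan-a, Pax3 was lower in 4C11+ by 1.22 (limma, adjusted p = 0.0318), and without replicate 3 of 4C11+ the difference of Mitf was -1.55.

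**Figure D3:**
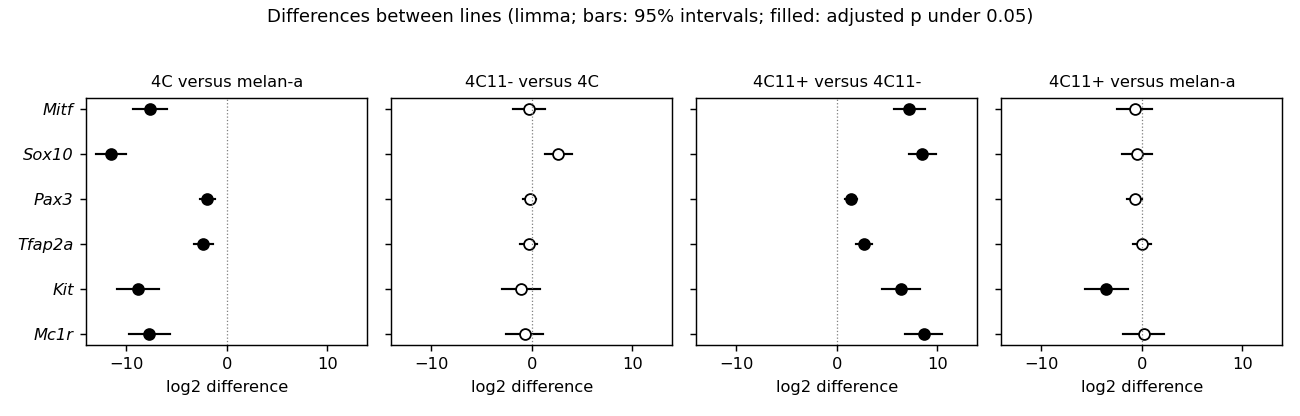
Fitted log2 differences (x axis) of the 6 genes (y axis) in 4 comparisons, as the first line minus the second; bars are 95% intervals and filled circles passed an adjusted p under 0.05. All 6 are filled for 4C versus melan-a and for 4C11+ versus 4C11-, none for 4C11- versus 4C, and only Kit for 4C11+ versus melan-a.

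Across the phenotypes, the mean of 4C and 4C11- was set against the mean of melan-a and 4C11+. All 6 genes were called lower in the mesenchymal-like lines (15.3% of all genes called lower, 14.3% higher). Their libraries did not overlap between the phenotypes, and the share of all genes without such overlap was not counted. The differences were -7.43 for Mitf (SE 0.53), -10.03 for Sox10 (SE 0.46), -1.67 for Pax3 (SE 0.22), -2.50 for Tfap2a (SE 0.28), -7.61 for Kit (SE 0.65) and -8.19 for Mc1r (SE 0.63). With values below 0 set to 0, the difference of Kit was -4.79 and was still called. In the fit as reported, the limma adjusted p lay between 2.53e-08 for Sox10 and 0.000122 for Pax3. These p-values rest on the spread between libraries of a line. They do not measure the spread between lines of a phenotype, of which there were 2 each.

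Kitl, the ligand of KIT, and the endothelins Edn1 and Edn2 were higher in the mesenchymal-like lines, where Kit was lower, and the endothelin receptor itself was not measured. Kitl was at -3.15 and -0.24 in melan-a, at 5.21, 5.66 and 6.05 in 4C, at 3.06, 5.19 and 5.54 in 4C11-, and at 2.00, 2.01 and 1.77 in 4C11+. Each mesenchymal-like library was above each epithelial one, and the mesenchymal-like lines were higher by 5.00 (limma, SE 0.56, adjusted p = 3.23e-05). Kitl was also higher in 4C11+ than in melan-a, by 3.62 (adjusted p = 0.0136), in the comparison where Kit was lower. Edn2, an endothelin, was at -0.72 and -1.42 in melan-a, at 5.35, 4.34 and 4.59 in 4C, at 6.72, 6.64 and 7.01 in 4C11-, and at -0.70, -2.44 and -2.58 in 4C11+. Edn1 was at or below -1.90 in all epithelial libraries and between 1.58 and 3.50 in the mesenchymal-like ones. The mesenchymal-like lines were higher by 7.26 for Edn2 (limma, adjusted p = 6.55e-08) and by 4.89 for Edn1 (adjusted p = 3.31e-06). Pomc, the precursor of the MC1R ligands, lay between -1.16 and 2.01 in all libraries, and its difference of -0.85 was not called (adjusted p = 0.212).

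Close relatives of the transcription factors did not move as one. Sox9, the SOXE factor of cartilage and of the early neural crest, was at 0.87 and -1.42 in melan-a, at 5.05, 3.65 and 4.06 in 4C, at 5.47, 4.84 and 4.53 in 4C11-, and at 1.60, 1.78 and 0.69 in 4C11+. It was higher in the mesenchymal-like lines by 4.06 (limma, adjusted p = 2.92e-05), opposite in direction to Sox10. Sox8, the remaining SOXE gene, was at 5.04, 4.84 and 5.26 in 4C11- against 1.78, 0.26 and 0.06 in 4C, and the difference between these lines of 4.35 was called (limma, adjusted p = 0.042). Sox8 was at 4.16 and -0.54 in the melan-a libraries, which stood apart from each other, and at 0 reads in all libraries of 4C11+. It was called higher in the mesenchymal-like lines by 3.21 (limma, adjusted p = 0.00453), although its libraries overlapped between the phenotypes. Tfe3 and Tfeb, the relatives of MITF that act on lysosomal genes, ranged from 4.57 to 6.05 and from 3.88 to 5.02 over all libraries. Their phenotype differences were -0.02 (95% interval -0.43 to 0.39) and 0.03 (-0.54 to 0.59), neither of which was called. Tfe3 was higher in 4C11+ than in melan-a by 0.92 (limma, adjusted p = 0.0435).

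**Figure D4:**
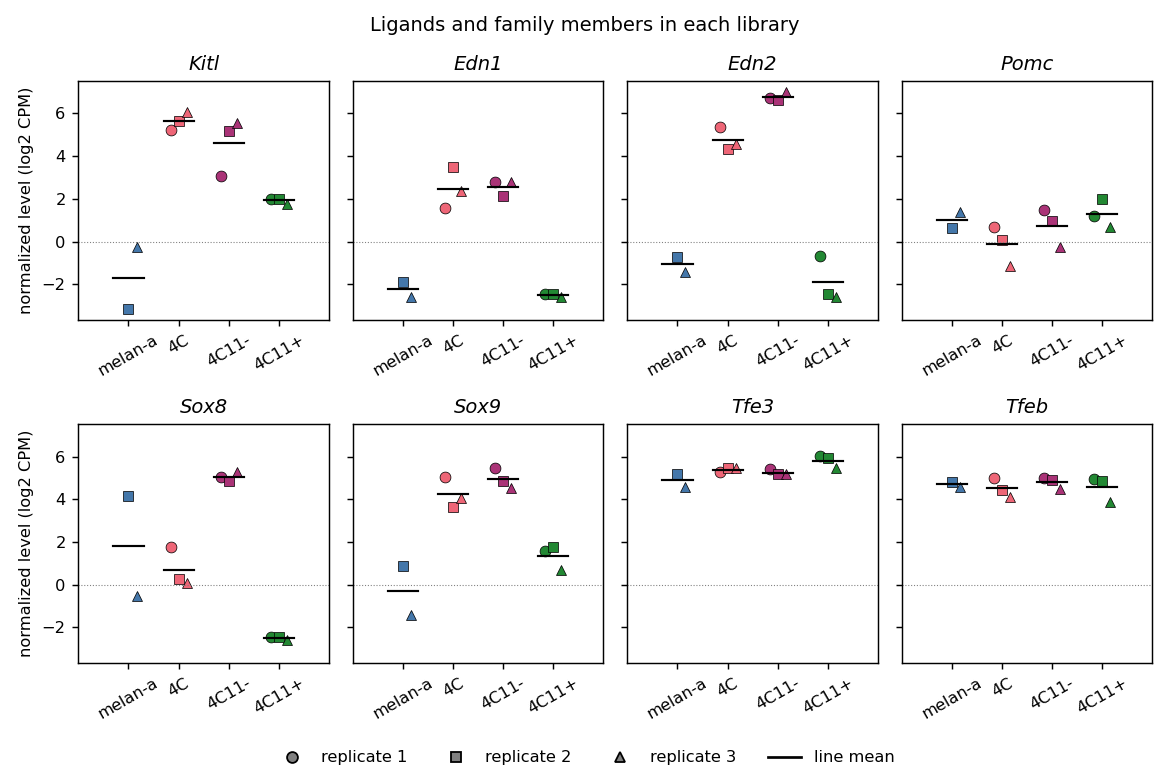
Log2 CPM (y axis) of ligands (top row) and relatives of the transcription factors (bottom row) in the libraries of the 4 lines (x axis); points are libraries and black bars line means. Kitl, Edn1, Edn2 and Sox9 are higher in every 4C and 4C11- library than in any melan-a or 4C11+ library, whereas Tfe3 and Tfeb stay between 3.88 and 6.05.

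The pathways around these genes are described by lists, each counted in the phenotype comparison, in which 14.3% of all genes were called higher and 15.3% lower, and set beside the median over all genes of -0.09. Of 18 pigment genes 17 were measured and all 17 were lower in the mesenchymal-like lines (median -6.41), among them Tyrp1 (-12.16), Dct (-11.84), Mlana (-10.35) and Rab38 (-9.24). Against melan-a alone, 13 were called lower in 4C (7.55% of all genes) and 12 in 4C11- (6.05%). The libraries of melan-a and 4C11- overlapped for Pmel, Rab27a and Mlph. Of 13 non-pigment targets of MITF 11 were measured, 5 were lower and 2 higher (median -0.59). Ppargc1a, a coactivator of mitochondrial genes, differed by -6.06, Tbx2 by -3.59, Met, the receptor of hepatocyte growth factor, by -2.93, and Hif1a by -1.49. Of 15 glial targets of SOX10 9 were measured, of which 4 were lower and 1 higher (median -0.67). S100b (-6.84) and Erbb3 (-6.17), a receptor for neuregulins, were lower, and Egr2, a regulator of myelination, was higher by 3.19.

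The remaining factors of the neural crest and melanocytes divided. Of 28 on the list 19 were measured, 9 were higher and 3 lower in the mesenchymal-like lines (median -0.19), and 7 were not called. Snai1 (7.10) and Zeb1 (5.56), which repress epithelial genes, Tbx3 (5.05) and Msx1 (4.41) were higher, while Snai2 (-3.76), Tbx2 and Sox5 (-1.79) were the 3 lower ones. Snai2 and Sox5 are outside the rule for named genes and were added after their values were seen. Both overlapped between the phenotypes. Snai2 was at 3.13 and 3.18 in melan-a and at 0 reads in 4C. It was at 1.13, -2.01 and -0.70 in 4C11- and at 0.15, 0.15 and 0.88 in 4C11+. Sox5 reached 3.97 in 4C11-, above the lowest 4C11+ library at 3.84. Among 13 relatives and partners of MITF 12 were measured, and 2 were lower, Chd7 (-2.68), a chromatin remodeler, and Usf2 (-0.80), both named after their values were seen. The phenotypes overlapped for both. Chd7 reached 5.11 in 4C11- against 5.00 in the lowest 4C11+ library, and Usf2 reached 4.62 in 4C against 4.38 in a melan-a library.

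The lists around the receptors held genes called in both directions. In the melanocortin list 31 of 37 genes were measured, 7 were lower and 2 higher (median -0.23). The cyclic AMP-induced nuclear receptors Nr4a3 (-4.07) and Nr4a1 (-2.12) and the kinase subunit Prkacb (-0.62) were lower, and the salt-inducible kinase Sik3 was higher by 0.97. In the KIT list 30 of 31 were measured, and 6 were higher and 6 lower (median -0.04), not far from the shares over all genes, with Kitl the largest, and Sos2 (-1.25) and Lyn (0.64) also without overlap of libraries. In the endothelin list 15 of 22 were measured, 5 were higher and 1 lower (median -0.02). Ece1, which makes active endothelin, was higher by 2.39, and Plcb4, a phospholipase C, was lower by 4.89.

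**Figure D5:**
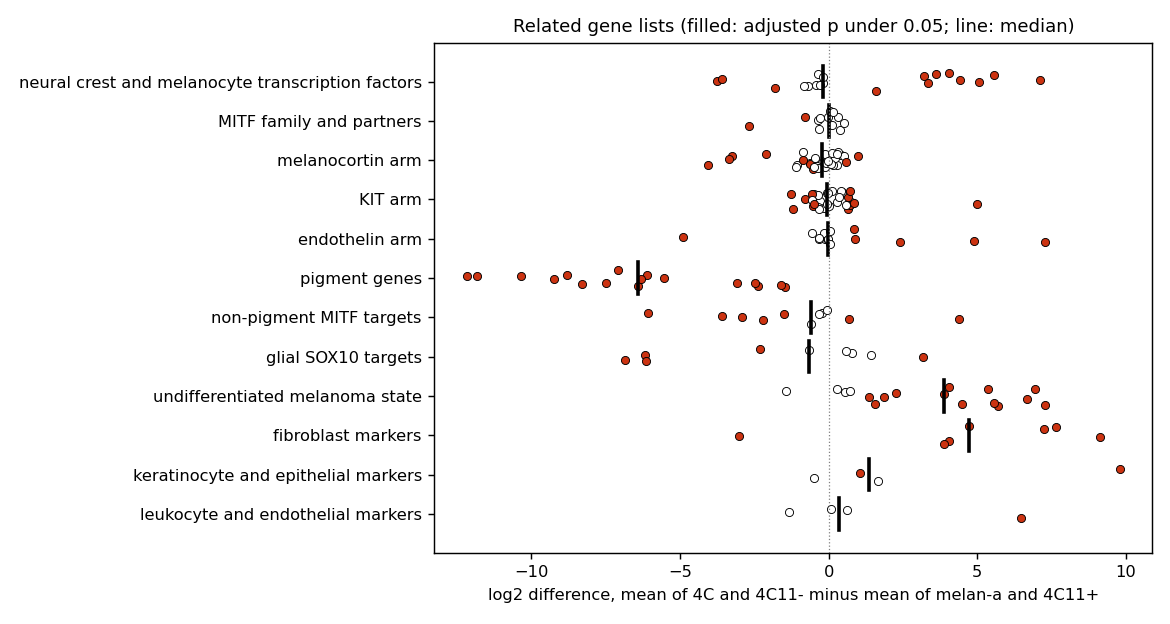
Log2 differences (x axis), mean of 4C and 4C11- minus mean of melan-a and 4C11+, of the measured genes of 12 lists (y axis); filled points passed an adjusted p under 0.05 and lines are list medians. All 17 pigment genes lie to the left of 0, and the signaling lists are centered near it, with medians of -0.23 to -0.02.

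Markers of the undifferentiated state and of fibroblasts differed between the phenotypes beside the lineage genes, and those of other cell types did so in part. Of 19 genes of the undifferentiated melanoma state 17 were measured and 13 were higher in the mesenchymal-like lines, none lower (median 3.87), with Egfr at 6.93, Lox at 6.66, Nt5e at 5.71 and Zeb1, also on the list above, at 5.56. Of 13 fibroblast markers 7 were measured, of which 6 were higher and 1, Postn, lower (median 4.70), led by Col1a1 (9.13), Prrx2 (7.63), Col3a1 (7.25) and Twist1 (4.70). Col1a1 was at 10.81, 10.91 and 10.91 in 4C and at 10.74, 10.42 and 10.55 in 4C11-. It was at 1.35 and 1.48 in melan-a and at 2.16, 1.78 and 1.32 in 4C11+. Pdgfrb was at 8.14, 8.75 and 8.70 in 4C and at 7.86, 8.25 and 7.46 in 4C11-. It was also at 5.02, 5.20 and 4.03 in 4C11+, and at 6.90 and 0.89 in the melan-a libraries, which lay far apart for it. Of 13 keratinocyte and epithelial markers 4 were measured, and Krt18 was higher by 9.79. Krt10 was called higher by 1.04, but it was higher in melan-a (1.48 and 1.04) than in any 4C library and at 0 reads in all of 4C11+. The list had a summed level of 494 to 680 CPM in 4C and 205 to 296 in 4C11- and at most 7.77 in the other lines. In 4C and 4C11- this sum was nearly all Krt18, at 7.64 to 9.40. Krt8, at or below 1.96 there, and Cdh1, at or below 1.36, were not called between the phenotypes. Cdh1 was lower in 4C than in melan-a by 2.20 (limma, adjusted p = 0.0469). Of 12 leukocyte and endothelial markers 4 were measured, and 1 of them, Cdh5, was called, higher by 6.46. Cdh5 was at 4.01, -0.70 and 0.44 in 4C and at 6.54 to 7.43 in 4C11-, while Cd68 differed by -1.35 and was not called (limma, adjusted p = 0.0874). The sums were 111 to 188 CPM in 4C11-, 10.2 to 30.5 in 4C, 17.1 to 126 in melan-a and 9.51 to 20.2 in 4C11+. Among the defining markers Col1a2, Dcn, Krt5, Krt14, Ptprc and Pecam1 were not analysed here. The part of these markers in the differences of the lineage genes was not tested.

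Between the epithelial lines, with 8.39% of all genes called higher and 7.52% lower in 4C11+, 7 of 17 pigment genes were higher in 4C11+ than in melan-a and none lower, among them Pmel (9.23), Rab38 (4.42) and Trpm1 (2.85). Tyr, also among the 7, was at 8.46, 8.39 and 8.70 in 4C11+. Rab38 was at 1.77 and 6.18 in the melan-a libraries, which lay far apart for it. Mitf and Sox10 were not called in this comparison. In the melanocortin list 2 genes were higher and 5 lower, with the adenylyl cyclases Adcy3 at 5.22, Adcy1 at -5.35 and Adcy9 at -2.27. Adcy1 was at 1.63 and 5.26 in the melan-a libraries, which lay far apart for it. In the KIT list 4 of 30 were higher and 3 lower, not far from the shares over all genes, with the adaptors Dok1 at -1.76 and Gab2 at 1.56 and the phosphatase Ptpn6 at 1.53 beside Kitl. Of the endothelin list 4 were lower, including Mme (-4.56), a peptidase that degrades endothelins, and Ece1 (-1.82).

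The genes whose levels over the 11 libraries were most like each member are given by Pearson r, as a description in which the points share 4 lines and fall into a high and a low set. For Mitf they were Sema3d (0.986), Cdh19 (0.982) and Inpp4b (0.982), and for Sox10 they were Ggh (0.990), Faah (0.989) and Tacc1 (0.988). For Pax3 they were Nckap5l (0.970), Slc26a7 (0.967) and Azgp1 (0.964), and for Tfap2a they were Ero1l (0.989), Sox6 (0.976) and Car6 (0.974). For Kit they were Flrt3 (0.979), Eya1 (0.976) and Itga6 (0.975), and for Mc1r they were Enho (0.982), Aldh1a3 (0.981) and Prox1 (0.980). The r compares patterns and not levels. Sema3d lay at or below 1.90 and Prox1 at or below 2.72 in every library. No gene was among the top 3 of more than 1 member. By rank correlation 2 of these 18 genes were again among the top 3 of their member.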

How the data were processed

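Total RNA was depleted of ribosomal RNA and sequenced as stranded libraries. According to the methods and the submitters' processing notes, the authors trimmed reads with Trimmomatic, aligned them with STAR to the mouse genome (GRCm38, Ensembl 90), assigned them to genes with Rsubread, retained those reaching 1 CPM in 4 or more libraries, and used voom. What they deposited is log2 CPM per gene and library, and all libraries share 1 highest value (13.69), as after quantile normalization, which can alter the spacing of values near 0 reads. Tool versions are not given in the sources used here. Of 14272 genes, 24 had no symbol. Coordinates are from GENCODE M21.

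Reads were estimated by ranking the distinct values of a library from 0, where each of the lowest 229 steps was held by at least 5 genes, and depth from the value at 40 reads. Folds use reads pooled over a line with exact 95% Poisson intervals and, where a line held 0 reads, a floor of 3 reads; a line with 1 to 3 reads is given as a ratio with its interval. They set the normalized level of the higher line against these reads, and the spread between libraries is not part of the intervals.

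Lines were compared with limma 3.58.1 in R 4.3.3 (1 mean per line, all 11 libraries, mean-variance trend, Benjamini-Hochberg over all genes, adjusted p under 0.05), which was tested on simulated data. The other steps used Python 3.11.15 with NumPy 2.4.6, pandas 2.3.3 and SciPy 1.17.1. Members and lists were chosen with earlier results of these data known. Named genes were the members, their relatives and ligands, the 3 genes most like each member, and up to 4 genes of each list with the largest called difference without overlap. Some genes that this rule names are not reported here. No pairing by replicate number was used between lines. Alternatives covered normalization, a filter on low values, the variance trend, the replicate number as a block, the libraries in the fit and each library left out. The first melan-a replicate was not analysed here.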

Additional observations from a re-analysis of the deposited data

How the results depend on the processing

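Of the 6 lineage genes, all kept their calls between the epithelial and the mesenchymal-like lines in every fit that held them. With genes of a mean log2 value under 1 left out, Kit was no longer tested, and 0 of the remaining 5 were called between 4C11+ and melan-a, where the count was 0 to 1 with a library left out (0 without replicate 2 of melan-a or replicate 1 or 2 of 4C11+). Between 4C11- and 4C the count was 0 to 1, with Sox10 called without replicate 3 of 4C11-. Differences that were not called changed sign. For 4C11- against 4C with a library left out, these were Mitf (-0.90 to 0.042; above 0 without replicate 1 of 4C or replicate 1 or 3 of 4C11-) and Kit (-1.60 to 0.10; above 0 without replicate 1 of 4C). For 4C11+ against melan-a they were Sox10 (-1.04 to 0.13; above 0 without replicate 2 of melan-a), Tfap2a (-0.32 to 0.38; below 0 without replicate 3 of melan-a or replicate 2 or 3 of 4C11+) and Mc1r (-0.10 to 0.43; below 0 without replicate 3 of 4C11+). With values below 0 set to 0, chosen after seeing the data, Kit rose by 3.03 from 4C11- and from 4C to 4C11+, and its phenotype difference was -4.79. Likeness by Spearman correlation kept 2 of 18 genes.

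Over all genes, calls between 4C11- and 4C went from 238 to 125 under the filter on low values, to 143 with the libraries of these lines alone and to 93 without replicate 2 of 4C (113 without its replicate 3, 97 without replicate 2 of 4C11-, 155 without replicate 1 of 4C11+). Between 4C11- and melan-a they went from 1940 to 843 with the libraries of these lines alone. Between 4C11+ and melan-a they went from 2270 to 1446 with the libraries of these lines alone, 1185 without replicate 2 of melan-a, 1089 without replicate 1 of 4C11+ and 1145 without its replicate 2. The deviations of same-numbered libraries gave no clear answer on pairing. Their r ran from -0.226 to 0.388, with 8 of 15 pairs over 0.1, and the same number correlated best in 14 of 30 cases. With 2 or 3 libraries per line, such a check cannot decide whether libraries of the same number belong together. With the replicate number as a block, 6 lineage genes were called between the phenotypes and 0 between 4C11- and 4C, and no call of a lineage gene changed. Depth limits what can be said of Mitf, Sox10, Kit and Mc1r in 4C and 4C11-, where a library held 0 to 16 reads of each.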

Other observations

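Cell cycle regulators among the MITF targets differed between the epithelial lines, which share high Mitf. Cdkn2a, an inhibitor of cyclin-dependent kinases, differed by -8.88 on the log2 scale (4C11+ minus melan-a; limma, SE 0.54, adjusted p = 1.21e-06), and Cdkn1a, another inhibitor, was higher by 4.20 (SE 0.62, adjusted p = 0.00108). Ppargc1a was lower by 2.54 (adjusted p = 0.021), and Cdk2 was higher by 1.11 (adjusted p = 0.0352). Pmp22, a myelin protein on the list of glial SOX10 targets, was the only gene of its 9 measured members called here and was higher by 8.18 (limma, SE 0.75, adjusted p = 2.98e-05).

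Of 17 measured genes of the undifferentiated state, 1 was higher and 5 were lower in 4C11+ than in melan-a, and 11 were not called, among them Nt5e (-0.48), Egfr (0.86) and Lox (0.38). Lox was at 0 reads in every library of both lines, Egfr at 0 or 1 and Nt5e at 1 to 5. The differences of these genes therefore lie at the low end of the scale and carry little information. Ngfr, the neurotrophin receptor that marks neural crest cells, was higher in 4C11+ by 5.44, whereas Wnt5a (-4.84), Fst (-4.01) and Zeb1 (-3.96) were lower. The melan-a libraries lay far apart for Wnt5a (-0.25 and 4.95) and Fst (3.28 and -0.24). Among the neural crest factors Lef1 (-5.08), Sox8 (-4.30) and Tbx3 (-3.57) were lower in 4C11+ as well. In melan-a the libraries stood apart for Sox8, as given above, and for Tbx3 (2.85 and -0.70). From 4C to 4C11-, where no lineage gene was called, Wnt5a was lower by 7.29 (limma, adjusted p = 0.00282) and Ppargc1a higher by 3.28 (adjusted p = 0.0158).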
